A study of Mus musculus with 59 samples.

Results

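The sterol and fatty acid synthesis genes described here are 36 genes of the SREBP pathway, of the 18088 genes listed for mouse prefrontal cortex. They were chosen by name, with earlier results of these data known. They comprise 7 enzymes of the mevalonate and isoprenoid steps, 3 enzymes that make squalene and lanosterol, 8 enzymes that turn lanosterol into cholesterol, 6 SREBP factors, regulators and sterol carriers, and 12 enzymes of fatty acid synthesis. All 36 reached a mean normalized count of 10 and were among the 16599 genes tested. Poly(A) RNA was sequenced from 59 C57BL/6J mice at postnatal day 25, after 3 weeks of drug given to the pups from day 3 to day 24 in their mother's milk. The arms were Shank3 knock-in heterozygous (HT) mice on lithium (n = 10), on fluoxetine (n = 10) and on vehicle (n = 10), and wild-type (WT) mice on lithium (n = 9), on fluoxetine (n = 10) and on vehicle (n = 10). Each arm held 5 females and 5 males, except WT lithium with 4 females. Shank3 encodes a scaffold of excitatory synapses, and the table's column names carry L68P beside the codes of the arms. Fluoxetine is an inhibitor of serotonin reuptake, and lithium salts are given as mood stabilisers. Doses, litters and the number of pups per mother are not given in the sources used here, so the p-values count pups as independent although some may share a mother.

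Cholesterol in the brain is made locally, because plasma lipoproteins do not cross the blood-brain barrier, and much of it goes into myelin while the cortex matures. The membrane-bound SREBP factors switch the pathway on: when sterol is scarce, SCAP carries them from the endoplasmic reticulum to the Golgi, where proteases free the part that enters the nucleus. When sterol is plentiful, INSIG proteins hold SCAP back, so that transcripts of the sterol enzymes, of Insig1 and of the sterol carrier Stard4 fall together. Of the SREBP factors, the product of Srebf2 acts mainly on sterol synthesis and a product of Srebf1 mainly on fatty acid synthesis.

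Total reads ran from 22984556 to 35969254 per library. Shank3 had 5748 to 8248 normalized counts (median 7756) in HT vehicle mice, against 6022 to 8496 (median 7616) in WT vehicle mice; a gene-level count does not tell a knock-in allele from the normal one, so it checks no label. All 10 markers of excitatory cortical neurons were above 0 in every library, and so were the 17 markers of myelinating oligodendrocytes. Markers of the olfactory bulb, a neighbouring region, varied most: their summed normalized count ran from 996 to 23657 within the WT fluoxetine arm alone. By those markers or by a low share of mitochondrial reads, 6 libraries stood apart: WT fluoxetine females 1 and 4, HT lithium females 4 and 5 and HT vehicle males 4 and 5. These 6 were kept, and calls lost without them are given with both values. The limit set on an index of the bulb markers, 2.5, lies in no gap. HT vehicle male 5 was just above it at 2.51, while WT fluoxetine female 2 at 2.48, HT fluoxetine male 5 at 2.41 and HT vehicle female 1 at 2.37 were just below. Fits without the 6 libraries thus still hold libraries with high bulb markers.

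Levels between members are compared as mean normalized counts per kilobase of transcript over all 59 libraries. The stearoyl-CoA desaturase gene Scd2 was the highest at 6275 per kilobase. Hmgcs1, which encodes the HMG-CoA synthase that opens the mevalonate steps, followed at 2945. The desaturases of polyunsaturated fatty acids came next, with 1681 for Fads1 and 1578 for Fads2, and then the sterol factor Srebf2 with 1252. The lowest were Hsd17b7, a sterol ketoreductase, at 158 and Stard4 at 173. The same desaturase step is served by Scd1, at 972, which lies beside Scd2 on chromosome 19 (GRCm38, 44394455 to 44407879 for Scd1 and 44293674 to 44306864 for Scd2). Scd1 and Scd2 are close paralogs, so the split of reads between them depends on the authors' quantification. Among WT vehicle mice the coefficient of variation of the normalized count ran from 4.41% for the ATP citrate lyase gene Acly to 16.5% for Scap. Its median was 10.5% over the 7 mevalonate enzymes and 9.34% over the 12 fatty acid enzymes.

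Promoter sequences are shown for 4 of the 7 members that passed the test in more than 1 drug comparison, since these turn up repeatedly below; they were picked after their values were seen. They are Nsdhl, with the most comparisons passed, and Fasn, Insig1 and Idi1, which come next by their smallest adjusted p among those with a matched promoter; Mvk, Sqle and Stard4 passed as often as these 3 and are not shown. The sequences run from 250 bases before to 50 bases after the annotated start (RefSeq, GRCm38.p6, gene strand). Nsdhl, a sterol dehydrogenase of the steps after lanosterol, lies at chrX:72918271-72918570 on the plus strand. Fasn, the fatty acid synthase, lies at chr11:120824498-120824797 on the minus strand. Insig1 lies at chr5:28071162-28071461 and Idi1, the isopentenyl diphosphate isomerase, at chr13:8885356-8885655, both on the plus strand. A stretch of 100 bases of the Hmgcs1 promoter, chr13:119690169-119690268 on the plus strand, is added because it holds the sterol regulatory element. Capitals mark matches on either strand to the sterol regulatory element TCACNCCAC, the NF-Y box CCAAT, the Sp1 box GGGCGG and the E-box CACGTG. In Fasn a CCAAT and its reverse complement ATTGG overlap and are printed as a single capital run.
Nsdhl: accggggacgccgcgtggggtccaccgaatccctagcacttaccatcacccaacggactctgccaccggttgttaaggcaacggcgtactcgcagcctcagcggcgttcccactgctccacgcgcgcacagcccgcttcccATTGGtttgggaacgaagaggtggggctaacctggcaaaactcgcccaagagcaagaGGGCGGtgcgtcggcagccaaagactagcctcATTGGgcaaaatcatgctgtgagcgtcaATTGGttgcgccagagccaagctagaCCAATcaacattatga
Fasn: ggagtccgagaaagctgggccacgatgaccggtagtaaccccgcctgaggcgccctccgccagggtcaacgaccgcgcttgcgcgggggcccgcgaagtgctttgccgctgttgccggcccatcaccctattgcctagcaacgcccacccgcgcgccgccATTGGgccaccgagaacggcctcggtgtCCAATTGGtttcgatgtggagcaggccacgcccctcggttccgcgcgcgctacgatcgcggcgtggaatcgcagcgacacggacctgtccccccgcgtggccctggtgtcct
Insig1: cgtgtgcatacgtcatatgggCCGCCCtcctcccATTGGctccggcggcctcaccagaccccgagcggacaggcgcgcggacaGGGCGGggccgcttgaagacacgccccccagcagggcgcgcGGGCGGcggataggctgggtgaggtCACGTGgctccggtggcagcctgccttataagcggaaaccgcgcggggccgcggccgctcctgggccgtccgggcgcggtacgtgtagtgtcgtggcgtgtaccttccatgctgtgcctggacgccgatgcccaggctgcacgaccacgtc
Idi1: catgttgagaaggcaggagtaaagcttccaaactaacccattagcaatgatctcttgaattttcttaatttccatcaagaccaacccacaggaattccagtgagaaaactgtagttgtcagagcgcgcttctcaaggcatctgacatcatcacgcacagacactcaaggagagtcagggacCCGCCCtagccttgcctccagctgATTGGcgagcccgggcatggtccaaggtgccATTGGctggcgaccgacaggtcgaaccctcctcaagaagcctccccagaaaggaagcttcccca
Hmgcs1: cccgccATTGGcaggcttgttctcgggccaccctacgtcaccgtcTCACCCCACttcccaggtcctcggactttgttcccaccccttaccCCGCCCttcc

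RefSeq promoters were matched for 29 of the 36 members, with 37 promoters in all because some genes have several starts. The NF-Y box CCAAT was found in 24 of the 37 member promoters (64.9%), against 37.4% of all 32851 promoters of this length. For the sterol enzymes alone it was in 14 of 18 promoters (77.8%), and for the fatty acid enzymes in 5 of 9 (55.6%). The Sp1 box GGGCGG was in 27 of 37 member promoters (73.0%) against 35.7% of all promoters. The E-box was in 7 of 37 (18.9%) against 7.15%, and the sterol regulatory element in 1 of 37 (2.70%), that of Hmgcs1, against 1.24%. These are matches of letters in a short window and not measured binding sites.

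Of the 36 members, 12 fell and 0 rose in WT mice given fluoxetine. The 12 were 6 of the 7 mevalonate enzymes, 2 of the 3 squalene and lanosterol enzymes, 2 of the 8 later sterol enzymes and 2 of the 6 regulators and carriers, while 0 of the 12 fatty acid enzymes passed. Their changes ran from -24.3% to -13.5% of the WT vehicle level. Of all genes tested, 5.66% passed in this comparison, 2.11% lower and 3.54% higher. The median log2 change was -0.10 over the 36 members and -0.31 over the 7 mevalonate enzymes, against -0.01 over all genes. Changes here and below are log2 differences between group means with their standard error, and adjusted p is that of limma after Benjamini-Hochberg adjustment over all genes tested, with 0.05 as the threshold.

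At the head of the mevalonate steps, Hmgcs1 had 5611 to 11068 normalized counts (median 8778) in WT fluoxetine mice, against 9776 to 12612 (median 11082) in WT vehicle mice. All 10 fluoxetine mice lay below the vehicle median and 7 of them below the lowest vehicle mouse, a log2 change of -0.38 ± 0.08 (adjusted p = 0.00173). Further along, Idi1 had 1021 to 2203 (median 1692) on fluoxetine, against 1775 to 2436 (median 2169) on vehicle. With 8 of 10 mice below the vehicle range, Idi1 fell by 24.3%, or -0.40 ± 0.08 (adjusted p = 0.00237). Fdps, which makes farnesyl diphosphate, the branch point to sterols and other isoprenoids, had 963 to 1257 (median 1052) on fluoxetine, against 1159 to 1655 (median 1353) on vehicle. It fell by 0.31 ± 0.06 on the log2 scale (adjusted p = 0.00256), and again 8 of 10 mice were below every vehicle mouse. Mvd, the mevalonate diphosphate decarboxylase, had 312 to 584 (median 463) on fluoxetine, against 455 to 706 (median 566) on vehicle. Its change of -0.33 ± 0.10 passed narrowly (adjusted p = 0.0478) and the call was lost when any of 30 single libraries, spread over all 6 arms, was left out, with changes from -0.39 to -0.27 over all such fits. The other mevalonate enzymes that passed were Mvk, the mevalonate kinase, at -0.27 ± 0.08 and Acat2, the acetoacetyl-CoA thiolase of the cytosol, at -0.21 ± 0.06. The Mvk call was lost without WT fluoxetine male 2 or 3, WT vehicle female 3 or 5 or WT vehicle male 3, and the Acat2 call without WT fluoxetine female 2, WT fluoxetine male 2 or 3, WT vehicle female 3 or WT vehicle male 2 or 3. Pmvk, the phosphomevalonate kinase, did not pass, at -0.10 ± 0.06 (adjusted p = 0.39).

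Squalene epoxidase, encoded by Sqle, is a rate-setting step after squalene. Sqle had 1329 to 2064 (median 1689) in WT fluoxetine mice, against 1871 to 2403 (median 2214) in WT vehicle mice. All 10 fluoxetine mice lay below the vehicle median, and the change was -0.35 ± 0.06 (adjusted p = 0.000521). Fdft1, the squalene synthase, fell by 0.24 ± 0.07, a call lost without WT fluoxetine female 1, 2 or 4, WT fluoxetine male 2 or 3, WT vehicle female 3 or WT vehicle male 2, 3 or 5. Lss, the lanosterol synthase, did not pass at -0.07 ± 0.05. Among the later enzymes, Msmo1, a sterol methyl oxidase, had 927 to 2579 (median 2028) on fluoxetine, against 2024 to 2984 (median 2359) on vehicle. Its change was -0.40 ± 0.09 (adjusted p = 0.00615), with 9 of 10 mice below the vehicle median of both sexes pooled. Msmo1 averaged 1579 in WT fluoxetine females, against 2603 in WT vehicle females, but 2188 in WT fluoxetine males, against 2223 in WT vehicle males. Among the genes that fell, the changes of Hmgcs1, Idi1, Msmo1 and Stard4 differed between the sexes, as given below. Nsdhl had 472 to 691 (median 593) on fluoxetine, against 651 to 780 (median 711) on vehicle. That was a change of -0.29 ± 0.06 (adjusted p = 0.00256), with 8 of 10 mice below the vehicle range. The other 6 later enzymes did not pass; Cyp51, the lanosterol demethylase, was at -0.23 ± 0.08 (adjusted p = 0.068) and Sc5d, a sterol desaturase, at -0.19 ± 0.06 (adjusted p = 0.06). Ebp, a sterol isomerase, lay above 0 at 0.08 ± 0.07, while the sterol reductases Tm7sf2 and Dhcr7 were both at -0.09, with SE of 0.08 and 0.07.

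The SREBP targets outside the enzyme chain lay lower as well. Insig1 had 1550 to 1927 (median 1663) in WT fluoxetine mice, against 1783 to 2574 (median 2144) in WT vehicle mice, and 8 of 10 fluoxetine mice were below every vehicle mouse. Insig1 fell by 0.36 ± 0.06 (adjusted p = 0.000339), the smallest adjusted p of any member in this comparison. Stard4 had 649 to 969 (median 831) on fluoxetine, against 762 to 1105 (median 1045) on vehicle, a change of -0.32 ± 0.07 (adjusted p = 0.00309). Transcripts of the factors themselves did not pass: Srebf2 was at -0.12 ± 0.07, Srebf1 at 0.09 ± 0.11, Scap at 0.08 ± 0.07 and Insig2 at -0.03 ± 0.04. For all 12 genes that fell the ranges of the arms overlapped.

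**Figure D1:**
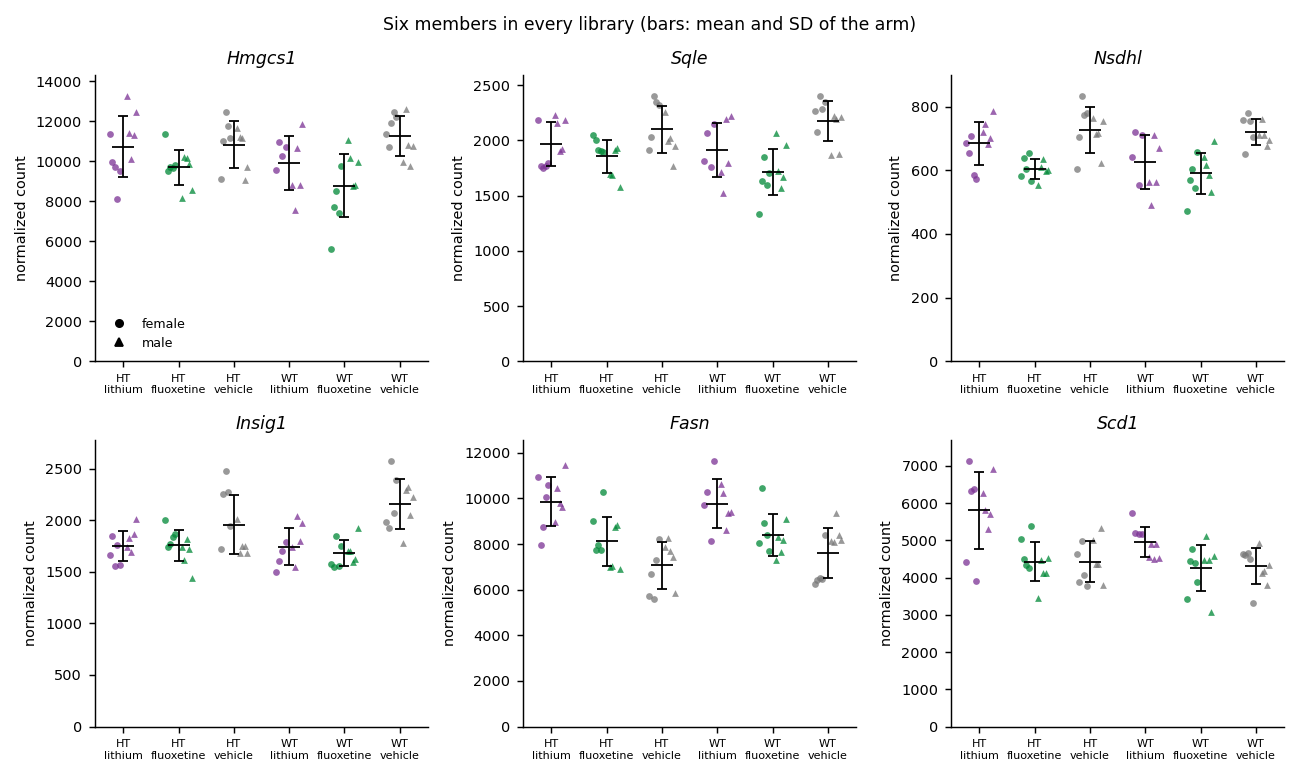
Normalized counts of Hmgcs1, Sqle, Nsdhl, Insig1, Fasn and Scd1 in each library (circles females, triangles males) over the 6 arms, with the mean and SD of each arm as bars. The sterol genes are lowest on average in WT fluoxetine mice (Sqle 1710 ± 209, against 2175 ± 181 in WT vehicle mice, SD, n = 10 each), and Fasn is highest in the lithium arms.

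Markers of myelinating oligodendrocytes were lower in the same comparison, though the lists did not go together in every arm. In HT lithium mice the median level against the WT vehicle mean was -0.68 for these markers and -0.04 for the 18 sterol enzymes. In WT fluoxetine mice 8 of the 17 markers fell and 0 rose, with a median log2 change of -0.62, and their summed normalized count ran from 61270 to 197476 (median 117658), against 98011 to 285768 (median 179615) in WT vehicle mice. Their part in the fall of the sterol genes was not tested; in bulk tissue, fewer cells of a type and less RNA per cell cannot be told apart. Of the same 17 markers, 0 passed in HT mice on fluoxetine (median -0.01), 2 fell in HT mice on lithium (median -0.27), and 0 passed in WT mice on lithium (median -0.15). Of the other marker lists in WT fluoxetine mice, 1 of 14 microglia markers fell (median -0.15), as did 1 of 12 oligodendrocyte precursor markers (median -0.13). Among the astrocyte (median 0.03), endothelial (median -0.06) and excitatory neuron markers (median -0.04) 0 passed. The olfactory bulb markers also had 0 passed, but their median was -0.77, with 7 of 8 below 0. Their part in the fall of the sterol genes was not tested either. Without the libraries that stood apart, 10 members fell in WT fluoxetine mice and Mvd and Fdft1 did not pass, at -0.18 and -0.16. The change of Insig1 was then -0.33, that of Sqle -0.30 and that of Idi1 -0.35.

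Under fluoxetine in HT mice 1 member passed the threshold. Nsdhl had 553 to 653 (median 601) in HT fluoxetine mice, against 602 to 834 (median 736) in HT vehicle mice. All 10 fluoxetine mice lay below the vehicle median and 6 below the vehicle range, a change of -0.26 ± 0.06 (adjusted p = 0.0407). Of all genes tested, 0.277% passed in this comparison, 0.0723% lower and 0.205% higher, so few genes of any kind passed. By limma without adjustment, 13 of the 36 members had a p under 0.05, against 1933 of the 16599 genes tested. The Nsdhl call was lost when any of 10 libraries was left out (HT fluoxetine females 1, 3 and 5 and males 1, 3 and 4, HT vehicle females 3 and 4 and males 1 and 5), with changes from -0.30 to -0.24, and without the libraries that stood apart (-0.28, adjusted p = 0.0993). All 7 mevalonate enzymes had changes below 0, from -0.25 for Idi1 to -0.01 for Pmvk, none past the threshold. Stard4 had 732 to 975 (median 777) on fluoxetine, against 790 to 1149 (median 945) on vehicle, at -0.27 ± 0.07 (adjusted p = 0.055). Hmgcs1 was at -0.16 ± 0.08 and Sqle at -0.17 ± 0.06. The median over the 36 members was -0.08, with 26 below 0.

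The response to fluoxetine was compared between the genotypes through their interaction, HT change minus WT change. Here 0 of 36 members passed by limma, edgeR or DESeq2, against 0% of all genes by limma, and 6 members had an unadjusted p under 0.05, against 5.08% of all genes. For Insig1 the difference was 0.21 (95% interval 0.04 to 0.38, adjusted p = 0.95) and for Msmo1 0.30 (0.04 to 0.56, adjusted p = 0.95). The Hmgcs1 difference was 0.22, with an interval from 0.01 to 0.43. These intervals hold both near-equal responses in HT and WT mice and clearly smaller falls in HT mice.

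Under lithium in HT mice 6 members rose and 1 fell. Of the 6, 5 were fatty acid enzymes, of the 12 measured, and the sixth was Ebp; the gene that fell was Idi1. Of all genes tested, 20.3% passed in this comparison, 10.9% higher and 9.43% lower. The 7 of 36 members that passed in either direction are thus near the share of all genes. The median log2 change was 0.10 over the fatty acid enzymes and 0.01 over all 36 members, against -0.00 over all genes, and with quantile normalization the median over the members was -0.03.

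Fasn, which builds palmitate, had 7950 to 11452 normalized counts (median 9928) in HT lithium mice, against 5595 to 8245 (median 7373) in HT vehicle mice. Of the 10 lithium mice, 9 were above every vehicle mouse, and Fasn rose by 40.3%, or 0.49 ± 0.07 (adjusted p = 6.56e-06). Scd1, which puts the first double bond into saturated fatty acids, had 3899 to 7129 (median 6043) on lithium, against 3786 to 5328 (median 4357) on vehicle. It rose by 0.38 ± 0.09 (adjusted p = 0.00104), and 7 of 10 lithium mice exceeded the vehicle range. Acss2 and Aacs rose as well. Acss2, which makes acetyl-CoA from acetate, had 1296 to 1764 (median 1498) on lithium, against 1104 to 1376 (median 1288) on vehicle, a change of 0.23 ± 0.06 (adjusted p = 0.00285). Aacs, which makes acetoacetyl-CoA from a ketone body, had 1350 to 2228 (median 1944) on lithium, against 1136 to 1712 (median 1559) on vehicle, a change of 0.31 ± 0.09 (adjusted p = 0.0139). For both genes 7 or 8 of the 10 lithium mice lay above the vehicle range. Acaca, the acetyl-CoA carboxylase that commits carbon to fatty acids, had 2850 to 3379 (median 3208) on lithium, against 2555 to 3128 (median 2932) on vehicle, at 0.13 ± 0.04 (adjusted p = 0.0289). The sterol isomerase Ebp had 347 to 496 (median 411) on lithium, against 314 to 407 (median 350) on vehicle, at 0.20 ± 0.07 (adjusted p = 0.0359). Idi1 had 1383 to 2081 (median 1726) on lithium, against 1745 to 2717 (median 2065) on vehicle, at -0.26 ± 0.08 (adjusted p = 0.0228). These are averages over the sexes. Ebp averaged 439 in HT lithium males, against 338 in HT vehicle males, and 388 in HT lithium females, against 377 in HT vehicle females. Idi1 averaged 1579 in HT lithium females, against 2214 in HT vehicle females, and 1918 in HT lithium males, against 1951 in HT vehicle males. For neither gene did the sex difference pass.

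The calls under lithium in HT mice were not equally firm. Without the libraries that stood apart, 3 members passed, and these were Fasn at 0.40, Scd1 at 0.42 and Acss2 at 0.20. The other 4 were then at 0.21 for Aacs, 0.18 for Ebp, 0.09 for Acaca and -0.21 for Idi1. When 1 library was left out at a time, those 3 and Aacs passed in every fit. The call of Ebp was lost without any 1 of HT lithium females 1 and 4, HT lithium males 3 and 5, HT vehicle females 1 and 3 and HT vehicle males 4 and 5, and its change stayed between 0.17 and 0.23. Acaca was lost without any 1 of HT lithium females 1 and 5, HT lithium male 5, HT vehicle females 1 and 3 and HT vehicle male 5, and Idi1 without HT lithium male 3 or HT vehicle female 3. Over all genes the change under lithium in HT mice rose with the GC content of the transcript (Spearman's rho 0.47, a description over 16599 genes that share these libraries). Fasn has a GC content of 57.9%, Aacs 56.9%, Scd1 47.1% and Idi1 41.9%. With that trend removed within each library, Fasn was at 0.38 and Scd1 at 0.42, both past the threshold, while Aacs at 0.21, Ebp at 0.19 and Idi1 at -0.14 did not pass. Astrocyte markers moved in the same comparison, with 6 of 14 higher and 0 lower and a median of 0.20; summed, they ran from 152765 to 208002 (median 175215) in HT lithium mice, against 138564 to 182165 (median 153469) in HT vehicle mice, and their part in the rise of the fatty acid enzymes was not tested. Of the other lists, 3 of 14 microglia markers (median 0.12) and 2 of 10 endothelial markers (median 0.11) rose and 0 fell, beside 10.9% of all genes that rose. Of the oligodendrocyte precursor markers 2 of 12 rose and 1 fell (median 0.01). Of the excitatory neuron markers 1 of 10 rose and 1 fell (median 0.10). All 8 olfactory bulb markers were below 0 with 0 past the threshold (median -1.06). Summed, the microglia markers ran from 13896 to 17722 (median 15222) in HT lithium mice, against 11628 to 17209 (median 14445) in HT vehicle mice, and the endothelial markers from 8341 to 12752 (median 10282) in HT lithium mice, against 8664 to 10853 (median 9437) in HT vehicle mice.

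The other 7 fatty acid enzymes did not pass under lithium in HT mice. Acly was at 0.07 ± 0.04 and Fads1 at 0.12 ± 0.05, and the highly expressed Scd2 was at 0.06 ± 0.05. Scd2 had 30538 to 38938 (median 34961) in HT lithium mice, against 27430 to 40605 (median 32909) in HT vehicle mice, so the lithium range lay inside the vehicle range. Elovl5 and Elovl6, which lengthen fatty acids, were both near 0 at -0.03, with SE of 0.08 and 0.07. Among the regulators, Srebf2 was at 0.15 ± 0.07 and Scap at 0.14 ± 0.07, and Insig1 at -0.15 ± 0.06 (adjusted p = 0.07).

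Under lithium in WT mice 1 member rose, Fasn, and 5 fell, where 12.8% of all genes passed, 7.66% higher and 5.11% lower. Fasn had 8142 to 11640 (median 9711) in WT lithium mice, against 6241 to 9342 (median 8118) in WT vehicle mice. All 9 lithium mice lay above the vehicle median and 7 above the vehicle range, a change of 0.37 ± 0.08 (adjusted p = 0.000869). The 5 that fell were sterol genes. Insig1 had 1500 to 2038 (median 1736) on lithium, against 1783 to 2574 (median 2144) on vehicle, at -0.32 ± 0.06 (adjusted p = 0.000351). Mvk had 403 to 528 (median 426) on lithium, against 469 to 665 (median 518) on vehicle, at -0.28 ± 0.08 (adjusted p = 0.0144). Stard4 had 620 to 1023 (median 854) on lithium, against 762 to 1105 (median 1045) on vehicle, at -0.25 ± 0.07 (adjusted p = 0.012). For Insig1 and Stard4 all 9 lithium mice were below the vehicle median, and for Mvk 8 of 9 were. Nsdhl had 490 to 720 (median 642) on lithium, against 651 to 780 (median 711) on vehicle, at -0.21 ± 0.06 (adjusted p = 0.0223). Sqle had 1524 to 2224 (median 1809) on lithium, against 1871 to 2403 (median 2214) on vehicle, at -0.19 ± 0.06 (adjusted p = 0.0434). The Sqle call was lost when any of 12 libraries was left out (WT lithium females 1 and 3 and males 1, 2 and 4, WT vehicle females 1, 3, 4 and 5 and males 2, 3 and 5), and with the replicate number as a block (adjusted p = 0.0562); the Nsdhl call was lost without WT lithium female 3 or WT lithium male 2. In the same comparison 3 of 10 endothelial markers fell (median -0.04) and 2 of 14 microglia markers fell (median -0.17). The summed microglia markers ran from 12241 to 14873 (median 14216) in WT lithium mice, against 13316 to 16863 (median 15630) in WT vehicle mice, and the summed endothelial markers from 8398 to 11144 (median 9053) in WT lithium mice, against 8248 to 10926 (median 9806) in WT vehicle mice. Their part in the fall of the sterol genes was not tested.

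Fdps at -0.18 ± 0.07 (adjusted p = 0.059) and Idi1 at -0.23 ± 0.09 (adjusted p = 0.061) lay just outside the threshold under lithium in WT mice. Among the fatty acid enzymes besides Fasn, 9 of 11 were above 0, with Scd1 at 0.22 ± 0.09 (adjusted p = 0.097) and Aacs at 0.17 ± 0.10. Scd1 had 4508 to 5744 (median 4895) in WT lithium mice, against 3329 to 4941 (median 4427) in WT vehicle mice. Over all genes the changes under lithium in WT mice rose with transcript length (Spearman's rho 0.34, a description), and Fasn, at 10050 bases, is the longest of the members. With the length trend removed, 2 members passed, Insig1 and Stard4, and Fasn was at 0.24 (adjusted p = 0.0581).

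The 5 sterol genes that fell on lithium in WT mice are also among the 12 that fell on fluoxetine in WT mice. Both comparisons use the same 10 WT vehicle mice, so the values are only set side by side. Insig1 changed by -0.32 on lithium and -0.36 on fluoxetine, and Stard4 by -0.25 and -0.32 in that order. For Hmgcs1 the values were -0.18 on lithium, short of the threshold (adjusted p = 0.12), and -0.38 on fluoxetine. Fasn stood at 0.37 on lithium and 0.15 on fluoxetine, the second with an adjusted p of 0.25. Over the 4 drug comparisons, 18 of the 36 members passed at least once. The share of all genes that passed at least once was not counted, so this number has no background beside it. By comparison, 20.3% of all genes passed for lithium in HT mice and 12.8% for lithium in WT mice. For fluoxetine it was 0.277% in HT mice and 5.66% in WT mice. Nsdhl fell in 3 of the 4 drug comparisons, and Mvk, Idi1, Sqle, Insig1 and Stard4 fell in 2.

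**Figure D2:**
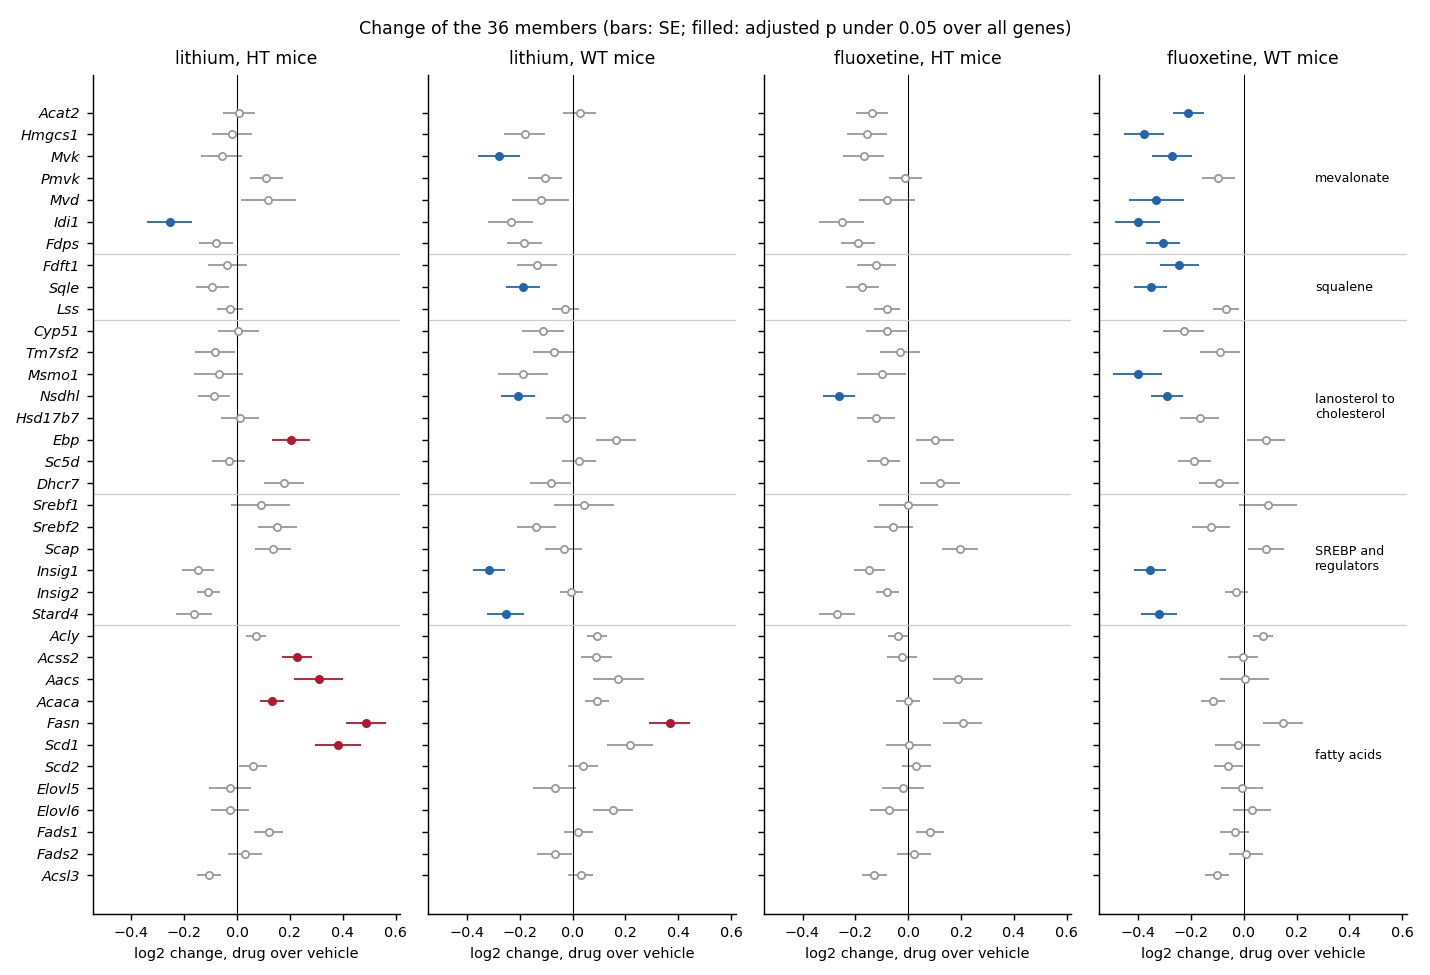
Log2 change with its SE for each of the 36 members, ordered by role, in the 4 comparisons of drug with vehicle; filled points have an adjusted p under 0.05. Filled points below 0 gather among the sterol enzymes, Insig1 and Stard4 in WT fluoxetine mice (12 genes), and those above 0 among the fatty acid enzymes in HT lithium mice (5 of the 6 genes that rose).

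Averaged over the sexes, genotype alone moved no member past the threshold; the few calls in 1 sex alone are given in the section on processing. Comparing HT with WT mice under vehicle, lithium or fluoxetine, 0 of 36 passed in each by limma, edgeR or DESeq2, against 0% of all genes by limma. In each, 3 members had an unadjusted p under 0.05, where 6.47% of all genes did under vehicle, 11.1% under lithium and 11.3% under fluoxetine, so that 3 of 36 is near or below the share of all genes. Under vehicle these were Insig1 at -0.15 (95% interval -0.27 to -0.03), Dhcr7 at -0.19 (-0.34 to -0.04) and Srebf2 at -0.15. Hmgcs1 averaged 10826 ± 1161 normalized counts in HT vehicle mice and 11249 ± 1014 in WT vehicle mice, and Fasn 7061 ± 1028 in HT and 7621 ± 1098 in WT (SD, n = 10 each). Under lithium the 3 were Pmvk at 0.15, Scd1 at 0.20 and Nsdhl at 0.13, and under fluoxetine Acly at -0.12, Msmo1 at 0.22 and Hmgcs1 at 0.16. The interaction of genotype with lithium also passed for 0 of 36 members by all 3 tools, against 0.00602% of all genes, with 4 members at an unadjusted p under 0.05, against 12.2% of all genes. Its estimate was largest for Srebf2, at 0.29 (0.08 to 0.50, adjusted p = 0.27). Fasn and Scd1, which passed under lithium in HT mice, are therefore not shown to respond differently in WT mice.

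The response to fluoxetine in WT mice differed between the sexes for 9 of 36 members, 7 with a lower and 2 with a higher change in females. Of all genes tested 8.66% differed, 5.08% lower and 3.58% higher in females. In WT females 14 members fell and 3 rose, against 7.07% and 6.30% of all genes. In WT males 1 member fell and 0 rose, against 0.608% and 0.952% of all genes. The ranges of WT fluoxetine and WT vehicle females did not overlap for 12 members, 10 of them lower and 2 higher, against 2.61% of all genes lower and 2.57% higher. In males this held for 1 member, Mvk, which was lower, and for 0 that were higher, against 1.74% and 2.45% of all genes.

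Msmo1 had 927, 1410, 2090, 1497 and 1972 normalized counts in WT fluoxetine females, against 2499, 2321, 2984, 2619 and 2591 in WT vehicle females. In males it had 2579, 2252, 2084, 1806 and 2220 on fluoxetine, against 2024, 2336, 2243, 2129 and 2382 on vehicle. The female groups are apart and the male groups are intermixed, with changes of -0.77 in females and -0.03 in males and a difference of -0.74 ± 0.19 (adjusted p = 0.0117). Idi1 had 1021, 1353, 1738, 1646 and 1551 in WT fluoxetine females, against 2402, 2243, 2390, 2414 and 2436 in WT vehicle females. The Idi1 males had 2203, 1963, 1740, 1409 and 1761 on fluoxetine, against 1813, 2095, 1802, 1775 and 2025 on vehicle. Again only the females separate, and the difference was -0.65 ± 0.17 (adjusted p = 0.0136). Acsl3, an acyl-CoA synthetase that activates long fatty acids, had 3471, 3583, 4159, 3920 and 4194 in WT fluoxetine females, against 4900, 5314, 4849, 4551 and 4839 in WT vehicle females. In males Acsl3 had 4887, 4547, 4751, 4532 and 3897 on fluoxetine, against 4561, 4170, 3819, 3736 and 4216 on vehicle. It was thus lower in all 5 treated females and higher on average in treated males, with changes of -0.34 and 0.14 and the smallest adjusted p of the 9 (-0.48 ± 0.09, adjusted p = 0.00489).

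The regulators Srebf1 and Scap went the other way. Srebf1 had 1560, 1114, 797, 1277 and 724 in WT fluoxetine females, against 772, 842, 628, 793 and 811 in WT vehicle females, and in males 611, 835, 817, 721 and 720 on fluoxetine, against 1042, 703, 857, 983 and 904 on vehicle. Treated females 1, 2 and 4 were above every vehicle female and treated females 3 and 5 were within their range, and the difference was 0.73 ± 0.22 (adjusted p = 0.0321). An index of olfactory bulb markers stood at 3.58, 2.48 and 4.08 in treated females 1, 2 and 4, against 0.19 and 0.15 in females 3 and 5. Msmo1 was also split between these females, with 927, 1410 and 1497 in the former, against 2090 and 1972 in the latter. The part of olfactory bulb tissue in either split was not tested. Scap had 2471, 3004, 2912, 2435 and 2810 in WT fluoxetine females, against 2116, 1923, 2205, 2099 and 2431 in WT vehicle females, and in males 2128, 2456, 2219, 3005 and 2699 on fluoxetine, against 2546, 2667, 3289, 2748 and 2761 on vehicle. Every treated female exceeded every vehicle female, and the difference was 0.51 ± 0.14 (adjusted p = 0.0162). The remaining members that differed were Hsd17b7 at -0.49 ± 0.15, Hmgcs1 at -0.46 ± 0.15, Stard4 at -0.43 ± 0.14 and Sc5d at -0.39 ± 0.13. By contrast Insig1 was at -0.40 in females and -0.32 in males, and Mvk at -0.21 and -0.33, with no difference past the threshold.

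**Figure D3:**
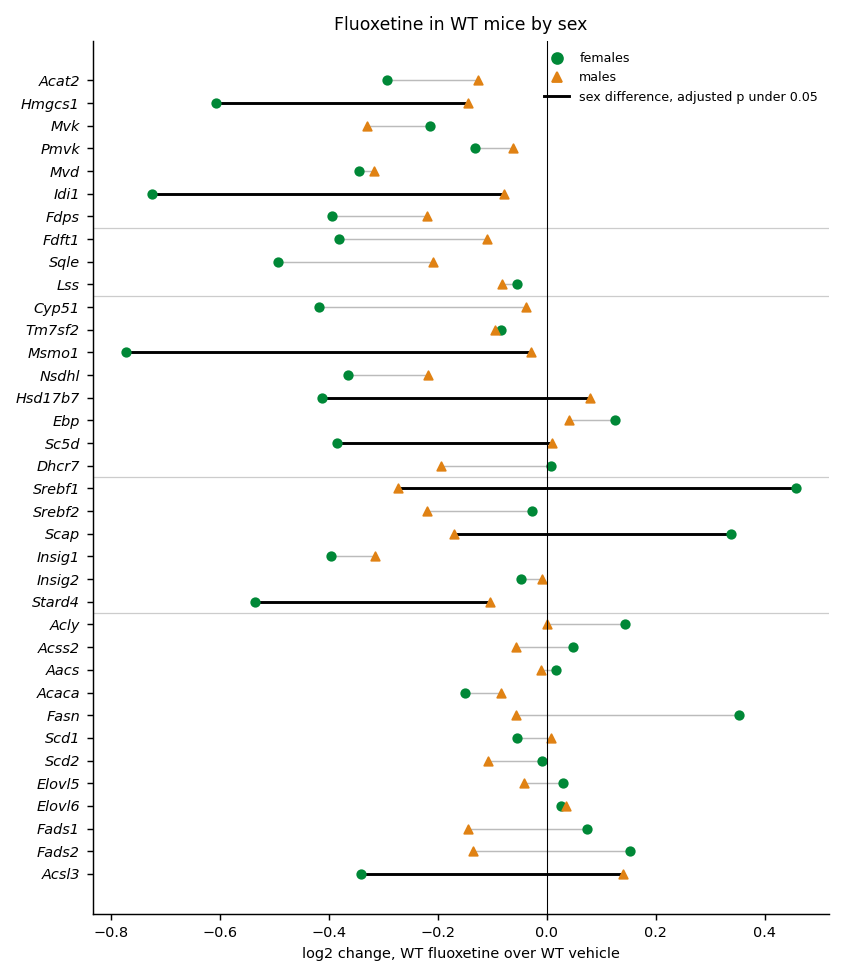
Log2 change of each member on fluoxetine in WT females (fluoxetine minus vehicle, 5 mice each) and in WT males (5 mice each), joined by a line that is black where the difference between the sexes passed. The widest joined pair below 0 is Msmo1 (-0.77 in females and -0.03 in males), and the widest that goes up in females is Srebf1.

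Calls of a difference between the sexes were lost in several of the alternative fits. WT fluoxetine females 1 and 4 are among the libraries that stood apart, and without those libraries 3 of the 9 members passed: Scap at 0.61, Idi1 at -0.55 and Acsl3 at -0.44. The other 6 were then at -0.50 for Msmo1, -0.45 for Stard4, -0.35 for Hsd17b7, -0.29 for Hmgcs1, -0.23 for Sc5d and 0.45 for Srebf1. The count also fell to 3 without WT fluoxetine male 1, to 4 without WT fluoxetine female 1 or 2, WT vehicle female 3 or WT vehicle male 4, and to 5 without WT fluoxetine female 4 or WT vehicle male 1. In the same comparison 0 of the 17 myelin markers passed (median -0.13), and all 8 olfactory bulb markers were above 0 with 0 past the threshold (median 1.55). Of the other lists, 2 of 12 oligodendrocyte precursor markers (median 0.43), 2 of 14 astrocyte markers (median 0.13) and 1 of 10 endothelial markers (median 0.02) passed with a higher change in females and 0 with a lower one; 0 of 14 microglia markers (median -0.14) and 0 of 10 excitatory neuron markers (median -0.42) passed. Summed olfactory bulb markers ran from 996 to 23657 (median 14560) in WT fluoxetine females, against 1257 to 12362 (median 7438) in WT vehicle females, and from 1063 to 8988 (median 1709) in WT fluoxetine males, against 2886 to 12670 (median 6930) in WT vehicle males. Summed precursor markers ran from 11799 to 15989 in WT fluoxetine females, against 13315 to 16250 in WT vehicle females, and from 12234 to 16333 in WT fluoxetine males, against 12525 to 19290 in WT vehicle males. The part of these cell types in the sex difference was not tested. The difference stayed past the threshold for Msmo1, Idi1 and Acsl3 in every fit without a single library. It was lost in 1 such fit for Scap (without WT fluoxetine male 1), in 6 for Hsd17b7, 7 for Srebf1, 9 for Stard4, 12 for Sc5d and 14 for Hmgcs1, all of them fits without a WT fluoxetine or WT vehicle mouse. The change of all genes in this comparison followed GC content (Spearman's rho 0.51), and 0 of 36 members passed with that trend removed. Msmo1, at -0.74 before, then stood at -0.63 and Idi1 at -0.44, Srebf1 at 0.49 and Scap at 0.24. The sex differences of the other drug comparisons passed for 0 of 36 members by limma, edgeR or DESeq2, against 0.0120% of all genes for lithium in HT mice, 0% for lithium in WT mice and 0% for fluoxetine in HT mice. Under lithium in HT mice 17 members had an unadjusted p under 0.05, against 17.1% of all genes, with the lowest estimate for Mvd at -0.65 (adjusted p = 0.15). Unadjusted, 6 members were under 0.05 for lithium in WT mice, against 8.84% of all genes, and 2 for fluoxetine in HT mice, against 5.31%.

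Taken by sex, the response to lithium in HT mice held 7 higher members and 1 lower in males, against 5.31% and 4.38% of all genes, and 2 higher and 4 lower in females, against 6.14% and 5.45%. The ranges of HT lithium and HT vehicle males did not overlap for 6 members that were higher (Mvd, Ebp, Srebf2, Acss2, Aacs and Fasn) and 1 that was lower (Acsl3), against 5.96% and 5.50% of all genes. In females no member was free of overlap, 0 higher and 0 lower, against 3.48% and 3.51% of all genes. In the sex difference of this response all 8 olfactory bulb markers were above 0, with 0 past the threshold (median 3.53). The index of these markers ran from 0.16 to 0.28 in HT lithium males, against 0.19 to 2.94 in HT vehicle males. In females it ran from 0.20 to 2.86 on lithium, against 0.17 to 2.37 on vehicle. Its part in the calls by sex was not tested. Fasn was at 0.53 in females and 0.45 in males, while Insig1 was at -0.34 in females and 0.04 in males. In WT mice on lithium, 1 member was higher and 2 lower in females, against 4.22% and 2.99% of all genes, and 0 passed in males, against 1.69% higher and 0.946% lower. In HT mice on fluoxetine 0 passed in females, against 0.374% higher and 0.295% lower, and 0 in males, against 0%.

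The level of each role was also summarised library by library. The median log2 level of the 18 sterol enzymes, relative to the WT vehicle mean, ran from -0.60 to -0.06 (median -0.20) in WT fluoxetine mice, against -0.13 to 0.14 (median 0.01) in WT vehicle mice. It ran from -0.37 to -0.03 (median -0.12) in HT fluoxetine mice, against -0.24 to 0.14 (median -0.03) in HT vehicle mice. For the 12 fatty acid enzymes it ran from -0.06 to 0.15 (median 0.08) in HT lithium mice, against -0.16 to 0.15 (median -0.01) in HT vehicle mice. In WT lithium mice the fatty acid enzymes lay between -0.01 and 0.23 (median 0.08), against -0.06 and 0.08 (median 0.01) in WT vehicle mice. Single libraries recur at the ends: WT fluoxetine female 1 was the lowest of its arm for 16 of 36 members, HT fluoxetine male 1 for 18 of 36, and HT lithium male 5 was the highest for 13 of 36.

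**Figure D4:**
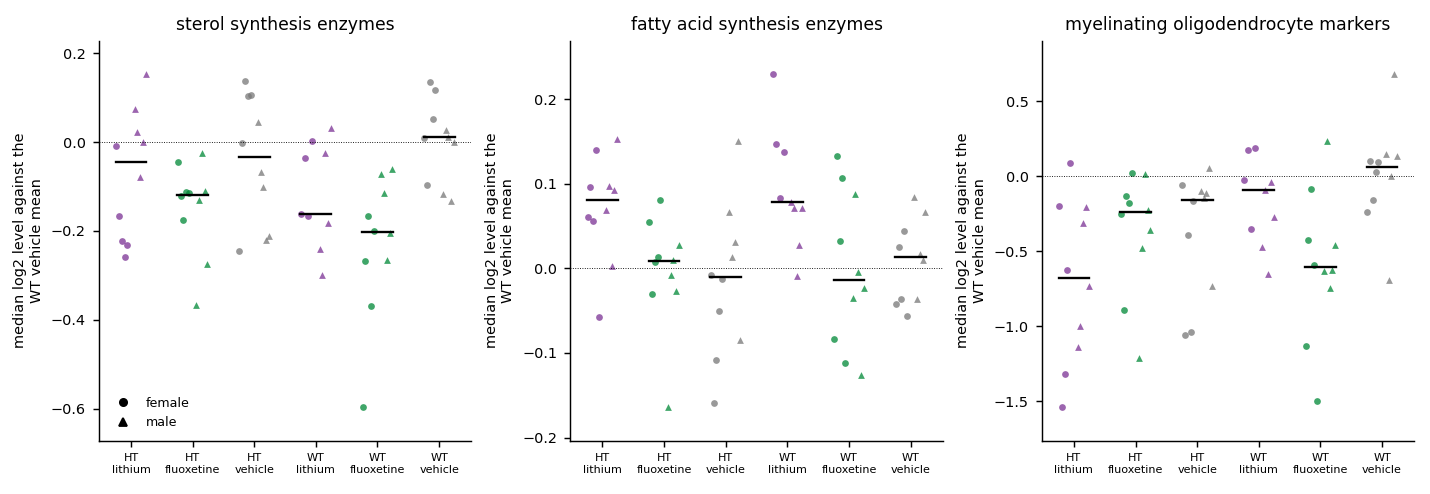
Median log2 level of the 18 sterol enzymes, the 12 fatty acid enzymes and the 17 myelin markers in each library, relative to the mean of WT vehicle mice, by arm; bars are the median of the arm. Sterol enzymes are below the WT vehicle mean in every WT fluoxetine library (-0.60 to -0.06), and myelin markers spread far more widely than either enzyme group.

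Genes that take sterol out of the pathway were read from a separate list of 15 genes of sterol efflux, storage and turnover. Abcg1, a transporter that exports cholesterol and that rises with sterol load through liver X receptors, was the only gene of this list to pass in all 4 drug comparisons, each time higher. It had 1274 to 1780 normalized counts (median 1493) in WT lithium mice, against 958 to 1323 (median 1224) in WT vehicle mice, a change of 0.34 ± 0.06 (adjusted p = 3.26e-05). In WT fluoxetine mice it had 1207 to 1458 (median 1364), at 0.20 ± 0.05 against the same vehicle mice (adjusted p = 0.0169). Abcg1 had 1224 to 1398 (median 1317) in HT lithium mice and 1212 to 1727 (median 1327) in HT fluoxetine mice, against 991 to 1358 (median 1128) in HT vehicle mice. The changes were 0.17 ± 0.05 on lithium (adjusted p = 0.0163) and 0.24 ± 0.05 on fluoxetine (adjusted p = 0.0277). Soat1, which stores cholesterol as esters, rose in WT mice, by 0.21 on lithium and 0.17 on fluoxetine. In all, 2 of the 15 rose in HT lithium mice and 0 fell, 3 rose and 0 fell in WT lithium mice, 1 rose and 0 fell in HT fluoxetine mice, and 2 rose and 1 fell in WT fluoxetine mice. Of all genes, 10.9% rose in HT lithium mice, 7.66% in WT lithium mice, 0.205% in HT fluoxetine mice and 3.54% in WT fluoxetine mice, so the count in HT lithium mice is near the share of all genes. The gene that fell was Npc2, a carrier of cholesterol out of lysosomes, at -0.20 ± 0.06.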

How the data were processed

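Stranded poly(A) libraries were made from prefrontal cortex, per the labels' protocols. The submitters' processing notes name Salmon 0.11.2, DESeq2 1.19.11, R 3.6.0 and the genome build GRCm38. What the authors deposited is a signal per gene and library, a count scaled by a size factor (0.783 to 1.245). Dividing by each library's smallest step gave whole reads for 100.0% of values within 0.001, and 0 columns were unused.

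From these values, log2(normalized count + 1) was tested with limma 3.58.1 (trend, robust) in R 4.3.3 for the 16599 genes with a mean of at least 10. The model had 12 groups of genotype, drug and sex and 47 residual degrees of freedom, and all tests were two-sided. Effects of drug and genotype are averages over the sexes, fold changes are on the log2(value + 1) scale, which understates those of low genes, and SD is between libraries. Steps were tested on simulated counts. The members and all gene lists were chosen with earlier results of these data known. In comparisons of drug with vehicle, the text names up to 8 members in full, those past the threshold with the largest change and the same sign in both sexes. Nsdhl was added to these under fluoxetine in WT mice. For the sex difference, the members given in full were chosen without that rule.

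Alternatives were 0.5 or 5 as the pseudocount, quantile normalization, all genes without the filter, a model of the compared groups only, the replicate number as a block, GC or length trends removed, 6 libraries left out (olfactory bulb index over 2.5 or mitochondrial reads under 5%), each sex alone and each library left out. The Wald test of DESeq2 1.42.0 and the quasi-likelihood test of edgeR 4.0.16 with TMM, both run on recovered reads, were added after the file was seen.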

Additional observations from a re-analysis of the deposited data

Results flagged for a closer look

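Each member was searched in each arm for a library farther from the rest than Dixon's 95% limit, and 14 of 216 searches found one; chance gives about 1 in 20. HT fluoxetine male 1 was the low extreme for Idi1 (1230 normalized counts, next lowest 1600), Cyp51 (1416, next 2081) and Insig2 (936, next 1086). WT lithium female 1 was the high extreme for Scd2 (41165, next 36463), Elovl5 (2375, next 1977) and Fads1 (6661, next 5996). Pmvk reached 1311 in HT lithium female 5 (next 925), the library with the lowest mitochondrial share, and Srebf1 reached 1412 in HT lithium female 4 (next 962), a library with high olfactory bulb markers. Idi1 reached 2717 in HT vehicle female 3 (next 2253), and its call under lithium in HT mice was lost without that library. Stard4 reached 975 in HT fluoxetine female 1 (next 848), Acat2 1248 in WT fluoxetine male 5 (next 1138) and Elovl5 2283 in HT fluoxetine male 5 (next 1981). The remaining low extremes were Acly in WT lithium male 4 (4363, next 4920) and Fads2 in HT fluoxetine female 2 (4343, next 4868).

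The change on fluoxetine in WT mice differed between females and males, by the test of the difference itself, for 9 members. The log2 differences, female change minus male change, were -0.74 for Msmo1, -0.65 for Idi1, -0.49 for Hsd17b7, -0.48 for Acsl3, -0.46 for Hmgcs1, -0.43 for Stard4, -0.39 for Sc5d, 0.51 for Scap and 0.73 for Srebf1.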

How the results depend on the processing

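Pseudocounts, quantile normalization, no filter and the replicate block kept every count of members called within 1.5 times the value reported, and none of the 35 named calls changed sign under the 11 settings with both sexes or the 59 fits that left out 1 library, nor any of the 26 that could be computed in each sex alone. Under lithium in HT mice, 3 members passed without the 6 libraries that stood apart. Under lithium in WT mice, 2 passed with the length trend removed, 3 in females alone and 0 in males alone. Under fluoxetine in HT mice, 2 passed by edgeR and 2 by DESeq2, and 0 with the GC or length trend removed, with only the groups compared, without the libraries that stood apart, in females alone or in males alone. Under fluoxetine in WT mice, 1 passed in males alone, and 8 to 14 under the settings with both sexes. The comparison of HT with WT gave 1 in males alone under vehicle, against 0.639% of all genes, and 2 in females alone under fluoxetine, against 2.96%. Genotype by lithium gave 4 in males alone, against 2.02% of all genes. The sex difference of the fluoxetine response in WT mice gave 3 with only the groups compared, 3 without the libraries that stood apart and 0 with the GC trend removed. The cause was not tested.

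Leaving out 1 library gave 5 to 10 members under lithium in HT mice, 4 to 9 under lithium in WT mice, 0 to 2 under fluoxetine in HT mice, 8 to 13 under fluoxetine in WT mice and 3 to 11 for the sex difference, and 0 in each of the other 8 comparisons. In HT mice on fluoxetine the count was 0 without HT fluoxetine females 3 or 5, HT fluoxetine males 1, 3 or 4, HT vehicle females 3 or 4 or HT vehicle males 1 or 5. With the replicate block the counts were 7, 5, 1, 12 and 9 in the same order, and of the named calls only that of Sqle under lithium in WT mice was lost. Replicate numbers do not pair the mice: over 319 pairs with the same number the median correlation of their deviations was -0.0086, and 89 were over 0.1. Of the 35 named calls, 33 held by edgeR and 35 by DESeq2, 22 held with the GC trend removed, 23 with the length trend removed, 22 with only the groups compared and 22 without the libraries that stood apart. Of the 26 named calls that could be computed in each sex alone, 16 held and 10 were lost in females, while 6 held and 20 were lost in males. Each sex alone had 5 mice per group, or 4, and the part of the smaller groups in the lost calls was not tested.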

Other observations

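Other branches of lipid metabolism were read from lists chosen with earlier results known. Fnta, the shared subunit of the enzymes that attach isoprenoids to proteins, fell in 3 of the 4 drug comparisons, by 0.19 ± 0.04 on the log2 scale in HT lithium mice, 0.16 ± 0.04 in WT lithium mice and 0.12 ± 0.04 in WT fluoxetine mice (adjusted p = 0.000471, 0.00601 and 0.0441). Ggps1, which makes the geranylgeranyl donor, fell by 0.29 ± 0.06 in HT lithium mice. These were the 2 of 10 genes of the isoprenoid side branches that passed in HT lithium mice, and Fnta was the 1 of 10 in each of the WT comparisons; 0 of 10 passed in HT fluoxetine mice. In HT lithium mice 20.3% of all genes passed, so 2 of 10 is about the share of all genes. In WT lithium mice 12.8% of all genes passed, in WT fluoxetine mice 5.66% and in HT fluoxetine mice 0.277%, so the counts there are near the share of all genes as well. Of 7 genes for SREBP proteases and for degradation in the pathway, only Rnf139, a ubiquitin ligase of the endoplasmic reticulum, passed in a drug comparison, at -0.20 ± 0.05 in HT lithium mice.

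In HT lithium mice, 2 of 16 further genes of fatty acid supply, elongation and desaturation rose and 2 fell, near the 10.9% and 9.43% of all genes that did. Mid1ip1, which promotes the assembly of active acetyl-CoA carboxylase, rose by 0.31 ± 0.08 (adjusted p = 0.00249) beside the rise of Acaca and Fasn, and Acsl6, an acyl-CoA synthetase of brain, by 0.18 ± 0.04. The genes that fell were Hsd17b12 at -0.17 ± 0.06 and Hacd3 at -0.12 ± 0.04, both of the elongation cycle. Of 12 fatty acid oxidation genes, Cpt1c and Hadha rose in HT lithium mice, by 0.16 ± 0.06 and 0.13 ± 0.04, and 0 fell; 2 of 12 is again near the share of all genes. In the other 3 drug comparisons 0 of these 16 and 0 of these 12 passed by limma.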
